A study of Mus musculus with 4 samples.

Results

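Mast cells are tissue-resident immune cells that leave the blood as progenitors and mature in skin and other connective tissues, where they store proteases, histamine and heparin in secretory granules. Their growth and survival depend on KIT, a receptor tyrosine kinase, and on its ligand, the KIT ligand (also called stem cell factor, encoded by Kitl), which skin cells such as keratinocytes and fibroblasts make. The same receptor is used by melanocytes and blood progenitors and is present in some neurons, so Kit alone does not mark a mast cell, whereas the granule proteases are close to specific for this lineage and, in part, basophils.

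The genes described here are 6 of the 19465 genes counted: the ligand Kitl, the receptor Kit, the chymases Cma1 and Mcpt4, the carboxypeptidase Cpa3 and the tryptase Tpsb2. They were selected on their UMI counts in skin against other tissue of these same areas, so those levels are a description and carry no test. All 6 were detected, with totals of 36356 UMIs (unique molecular identifiers, which count captured molecules) for Cma1, 18991 for Kit, 11389 for Tpsb2, 5647 for Kitl, 3756 for Cpa3 and 1273 for Mcpt4.

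The samples were formalin-fixed, paraffin-embedded coronal sections through the mid-palate of whole wild-type mouse heads at embryonic day 14.5 (E14.5) and E15.5, measured by Visium spatial RNA sequencing with spots about 55 µm wide that each hold several cells. Each stage had 2 capture areas, 1 with a single section (replicate 1) and 1 with 3 sections (replicates 2,3,4), and all embryos shared the wild-type genotype, with no treatment named. Sections of an area share a library, so the capture area was the sample (n = 2 per stage, 4 in all), and nothing in the labels says whether areas came from separate litters, so p-values measure the spread between these areas only. Where 4 values follow each other, they are for E14.5 replicate 1, E14.5 replicates 2,3,4, E15.5 replicate 1 and E15.5 replicates 2,3,4, in that order.

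The 4 areas held 1106, 2310, 989 and 1952 tissue spots with 15438992, 109127953, 67344393 and 89128289 UMIs. E14.5 replicate 1 stood apart: its median spot held 6752 UMIs against 45058.5 to 64051 in the other areas, and it held 31 lens marker UMIs in all against 64028 or more, so means over areas are also given without it where that changes what they show. Markers of brain, cartilage, bone, muscle and skin were present in every area. Hox genes of paralog groups 4 to 13, which as background are silent in the face and active in neck, trunk and limbs, were also present in the skin zone of each area, although the labels give whole head as the tissue. Whether tissue other than head lay on the areas was not tested.

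Skin was found from 7 epidermis markers (Krt1, Krt10, Krtdap, Sbsn, Krt77, Lor and Dmkn). A spot at 1000 CPM (UMIs of the genes per 1000000 UMIs of the same spots) or more for their sum was called an epidermis spot, and the skin zone was these spots with all tissue spots within 1 spot spacing. It held 1733 of 6357 tissue spots (973 epidermis spots and 760 surrounding spots), in 373, 536, 287 and 537 spots of the 4 areas. The zone is an approximate one: 614 spots lay within 1.5-fold of the threshold, 747 of its spots had epidermis or dermis markers as their highest marker group, and 118 had oral epithelium markers highest. In E14.5 replicate 1 the median skin zone spot held 1735 UMIs, so 2 epidermis UMIs could place a spot in the zone.

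The genomic positions of the members on GRCm38 (the mm10 assembly) are as follows, each the whole protein-coding gene. Kitl lies at chr10:100015630-100100416 on the plus strand and Kit at chr5:75574916-75656722 on the plus strand. Both chymase genes lie on the minus strand of chromosome 14, Cma1 at chr14:55941451-55944675 and Mcpt4 at chr14:56059629-56062313. Cpa3 lies at chr3:20215620-20242181 on the minus strand and Tpsb2 at chr17:25366305-25369098 on the plus strand.

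The 250 bases before the RefSeq start of the 3 granule protease genes with an entry (5 of the 6 members had one; GRCm38.p6) are shown because these genes were high in the same spots and because Gata1 and Gata2, transcription factors of the mast cell lineage, rose with them in the comparison of spots described further on. The letters GATAA, part of the sequence that GATA factors bind, were searched on both strands and are in capitals (TTATC where the match is on the other strand). Each sequence runs 5′ to 3′ on the strand of the gene and ends at the base before its start.
Cma1, chr14:55944676-55944925, minus strand: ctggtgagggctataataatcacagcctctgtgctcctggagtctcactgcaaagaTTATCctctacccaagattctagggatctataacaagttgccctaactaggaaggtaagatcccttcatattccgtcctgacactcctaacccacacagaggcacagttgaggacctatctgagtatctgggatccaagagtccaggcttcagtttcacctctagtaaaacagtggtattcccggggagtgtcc
Mcpt4, chr14:56062311-56062560, minus strand: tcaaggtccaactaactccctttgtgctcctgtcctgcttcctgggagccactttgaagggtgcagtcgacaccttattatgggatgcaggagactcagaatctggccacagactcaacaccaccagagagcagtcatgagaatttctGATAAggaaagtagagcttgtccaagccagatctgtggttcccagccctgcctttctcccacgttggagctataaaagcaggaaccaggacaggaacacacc
Cpa3, chr3:20242182-20242431, minus strand: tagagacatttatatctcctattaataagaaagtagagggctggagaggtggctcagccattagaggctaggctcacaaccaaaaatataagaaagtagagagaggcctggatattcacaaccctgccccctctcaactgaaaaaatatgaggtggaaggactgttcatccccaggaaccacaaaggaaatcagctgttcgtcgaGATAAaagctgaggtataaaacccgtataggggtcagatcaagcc
Each of the 3 held 1 match, whose first base lay 194 bases before the start in Cma1, 102 in Mcpt4 and 45 in Cpa3. The windows of Kit and Kitl held 0 matches. Of 32851 RefSeq mouse promoter windows of this length, 22.6% held the letters, so a match here is a description of these windows and says nothing on binding.

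Kitl was about 2-fold higher in the skin zone than in other tissue in every area. Its level was 53.5, 24.4, 38.5 and 35.5 CPM in the skin zone and 23.1, 13, 19.4 and 18.2 CPM in other tissue, so within each area the skin zone value was the higher, while skin zone values of some areas came close to other-tissue values of others. The mean log2 ratio of skin zone to other tissue was 1.02 ± 0.13 (SD, n = 4). E14.5 replicate 1 had the highest value in both zones, and its skin zone value rested on 69 UMIs, with an exact Poisson interval of 41.6 to 67.7 CPM (intervals here are 95% and cover counting error only). Leaving it out gave 0.95 for the mean log2 ratio.

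Kit was spread over the whole head, and its mean level in the skin zone was close to that in other tissue. Its level was 46.5, 70.0, 81.8 and 86.3 CPM in the skin zone against 73.1, 60.3, 75.9 and 60.0 CPM in other tissue, a ratio of 0.636, 1.16, 1.08 and 1.44. It was thus lower in the skin zone of E14.5 replicate 1, on 60 UMIs, and higher in that of the other 3 areas. The intervals of the ratio in those 3, for counting error only, were 1.09 to 1.23, 1.01 to 1.15 and 1.36 to 1.52. The mean log2 ratio was 0.05 ± 0.50 (SD, n = 4), which is within the spread between areas, and it was 0.28 without E14.5 replicate 1 and -0.11 without E15.5 replicates 2,3,4.

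Cma1, which encodes a chymase of connective tissue mast cells, was at 400.0, 383, 469 and 568 CPM in the skin zone and at 21.4, 28.9, 30.0 and 59.4 CPM in other tissue. The lowest skin zone value was above the highest value of other tissue, and the ratio was 18.7, 13.3, 15.6 and 9.56. The skin zone held 63.0% to 82.7% of all Cma1 UMIs of an area, with 33.7%, 23.2%, 29.0% and 27.5% of its tissue spots and 8.36%, 18.2%, 23.5% and 24.5% of its UMIs.

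Mcpt4, the other chymase, was the least counted member, at 8.53, 18.1, 10.2 and 19.7 CPM in the skin zone and 0.848, 1.32, 0.99 and 1.96 CPM in other tissue. Its lowest skin zone value, in E14.5 replicate 1, rested on 11 UMIs. The ratio of skin zone to other tissue lay between 10.0 and 13.7 over the 4 areas.

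Cpa3, which encodes the carboxypeptidase that mast cells store beside their chymases, was at 58.1, 28.5, 39.5 and 66.9 CPM in the skin zone and 4.95, 3.22, 3.12 and 7.59 CPM in other tissue. Tpsb2, which encodes a tryptase, was at 136, 125, 142 and 176 CPM in the skin zone and 7.07, 10.0, 9.18 and 17.3 CPM in other tissue. For both genes every skin zone value was above every value of other tissue. Mean log2 ratios were 3.79 ± 0.41 for Cma1, 3.80 ± 0.40 for Tpsb2, 3.45 ± 0.22 for Mcpt4 and 3.38 ± 0.27 for Cpa3 (SD, n = 4 each). E15.5 replicates 2,3,4 had the highest level of each of the 4 proteases in other tissue.

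**Figure D1:**
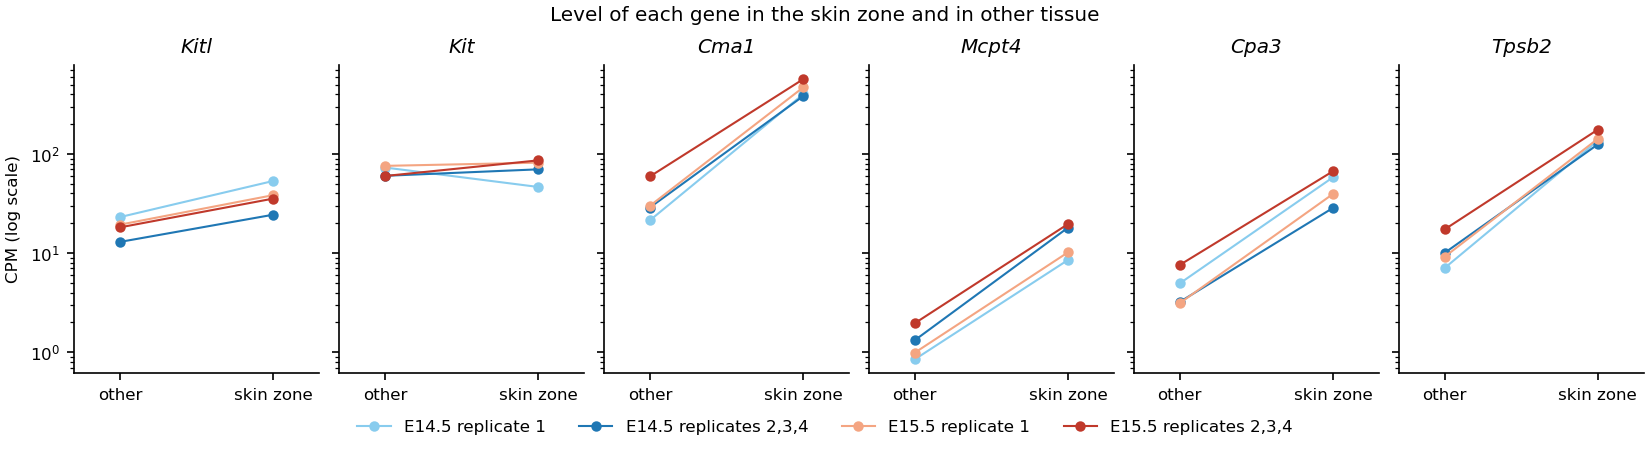
Level of each gene in CPM on a log axis in other tissue and in the skin zone, 1 line per capture area. The lines of Cma1, Mcpt4, Cpa3 and Tpsb2 all climb steeply, those of Kitl climb by about 2-fold, and those of Kit are near level, with E14.5 replicate 1 going down from 73.1 to 46.5 CPM.

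As a background, 15213 genes had at least 50 UMIs, of which 30.4% were higher in the skin zone in all 4 areas and 2.53% were over 2-fold higher in all 4. Of the members, 5 of 6 were higher in all 4 areas (not Kit) and the 4 proteases were over 2-fold higher in all 4. By mean log2 ratio, Tpsb2 ranked 30, Cma1 31, Mcpt4 58, Cpa3 65, Kitl 916 and Kit 6997 of these genes. Krt77 and Krtdap, which help define the zone, and Hox genes such as Hoxc8 ranked above them. Other genes of mast cells, a list of 27 of which 21 had enough UMIs, were higher in all 4 areas in 19 cases and over 2-fold higher in 14, with a median log2 ratio of 2.65 against -0.0038 over all genes. Of other cells that skin could hold, 6 of 6 macrophage markers were higher in all 4 areas with a median of 0.71, 4 of 4 measured blood markers with a median of 0.50 and 0 of 5 pigment cell markers with a median of 0.15. Mcpt8, the basophil marker measured, was higher in all 4 areas (2.14), as were 4 of 4 markers of basal epithelium (median 1.56) and 4 of 4 of dermis (median 1.26). The part of these cells in the members' levels was not tested. In a section, more cells of a type and more RNA per cell cannot be told apart.

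Fcer1a, the defining gene of the high-affinity IgE receptor, had 24 UMIs in all areas together, and Mrgprb2, a receptor of mature connective tissue mast cells, had 12. Hdc, which encodes the enzyme that makes histamine, had 3769 UMIs, Gata2 had 4556 and Slc18a2, a vesicular monoamine transporter that nerve cells also use, had 18123. Totals of different genes are not comparable with each other here.

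Within the skin zone as a whole, the proteases were higher in epidermis spots than in surrounding spots. From the epidermis spots outward, Cma1 had a mean level of 574 ± 110.4 CPM at distance 0 and 323 ± 79.7 CPM at 1 spot spacing (SD, n = 4 areas). It was at 93.7 ± 26.3 CPM at 2 spacings, 60.0 ± 21.7 at 3 to 4, 27.0 ± 9.42 at 5 to 7, 11.1 ± 5.87 at 8 to 11 and 5.85 ± 2.13 at 12 or more. Each step was downward in the mean. Without E14.5 replicate 1 the means ran from 618 to 4.89 CPM, again downward at each step. Tpsb2 went from 187 ± 23.6 CPM through 99.8 ± 24.0 and 32.7 ± 10.4 to 1.60 ± 0.97 CPM over the same range, and Cpa3 from 63.7 ± 21.8 to 1.18 ± 0.86 CPM. Mcpt4 went from 17.8 ± 7.76 CPM to 0.171 ± 0.224 CPM.

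The mean of Kit was 79.2 ± 22.6 CPM in epidermis spots, lowest at 2 spacings with 52.0 ± 3.75 CPM, and highest at 12 or more spacings with 92.7 ± 15.9 CPM. The decline to 2 spacings was one of the 3 deeper areas, where it ran from 90.2 ± 7.04 to 52.9 ± 4.06 CPM, whereas E14.5 replicate 1 was at 46.4, 46.6 and 49.3 CPM at 0, 1 and 2 spacings. In the 3 deeper areas the level at 12 or more spacings, 93.8 ± 19.3 CPM, lay within the spread of that in epidermis spots. Kitl was at 40.6 ± 6.09 CPM in epidermis spots and 34.6 ± 16.6 CPM at 1 spacing, and its means beyond that lay between 16.7 and 20.4 CPM. At 1 spacing the areas were far apart, at 56.6, 17.4, 36.0 and 28.3 CPM, and without E14.5 replicate 1 the mean there was 27.2 ± 9.36 CPM.

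**Figure D2:**
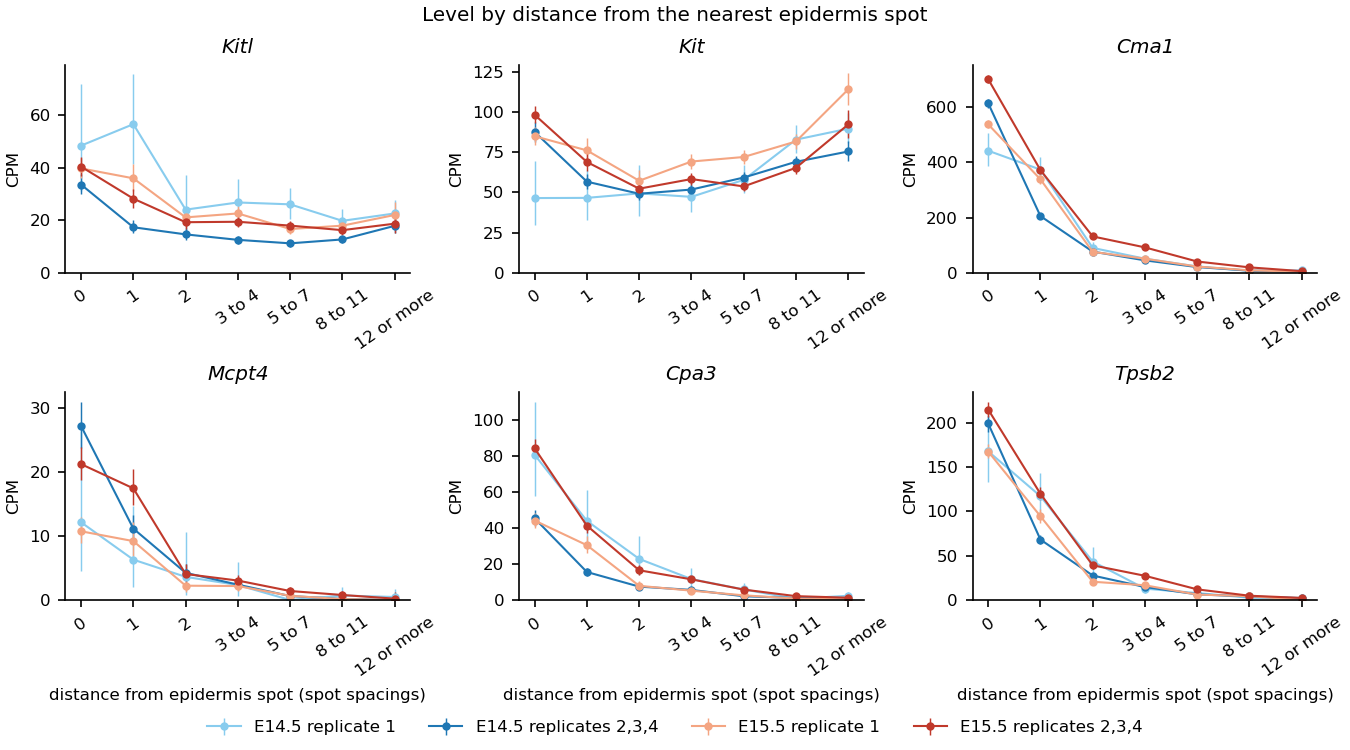
Level in CPM against distance from the nearest epidermis spot in spot spacings, 1 line per capture area, with exact 95% Poisson intervals as bars. The 4 proteases decline from distance 0 to near 0 CPM at 12 or more spacings, while Kit declines to 2 spacings in the 3 deeper areas, is near level there in E14.5 replicate 1, and is higher again at 12 or more spacings.

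The map of Cma1 shows the same in space. Spots at the outer rim of the sections had the highest levels, with low levels scattered inside the sections and stretches of spots with 0 UMIs in every area. The 10% of tissue spots with most UMIs of a gene held 59.6% to 70.4% of all Cma1 UMIs in the 3 deeper areas and 73.7% in E14.5 replicate 1. For Kit the same spots' share was 29.4% to 34.2% in the 3 deeper areas and 61.2% in E14.5 replicate 1, where few UMIs per spot raise such a share.

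**Figure D3:**
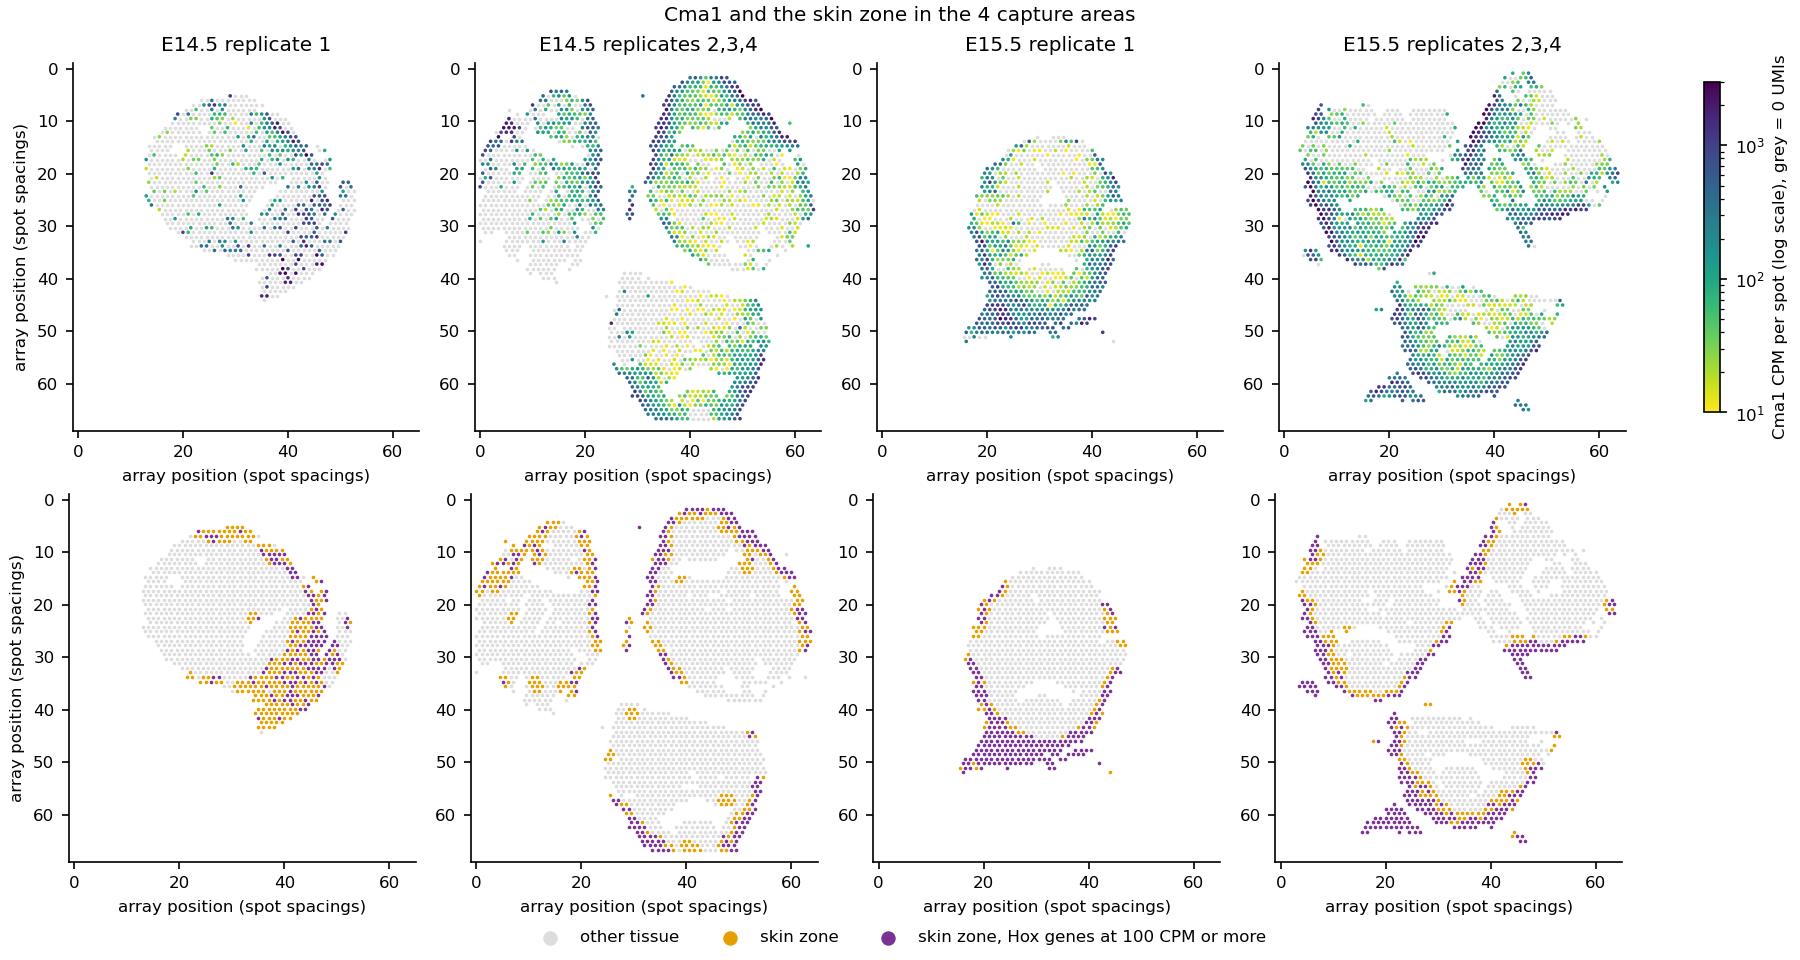
Maps of the 4 capture areas in spot spacings, with Cma1 in CPM per spot on a log colour scale in the upper row (grey is 0 UMIs) and, in the lower row, other tissue in grey, the skin zone in orange and skin zone spots with Hox genes at 100 CPM or more in purple. Dark Cma1 spots line the outer rim of the sections and overlap the purple spots. In shallow spots, as in E14.5 replicate 1, a single Hox UMI can reach 100 CPM.

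To compare the members across tissues, spots outside the skin zone were assigned to the marker group with the highest score, which gave 13 groups beside the epidermis spots and the surrounding spots (15 in all). These are regions of mixed cells, and in 2096 spots the highest 2 scores lay within 0.5. Cma1 was highest in epidermis spots (574 ± 110.4 CPM), followed by surrounding spots (323 ± 79.7 CPM) and the dermis marker spots outside the zone (275 ± 40.6 CPM, n = 2 areas with enough spots). Next came oral epithelium (70.7 ± 34.8 CPM), lens (65.6 ± 23.1 CPM, n = 3), muscle (64.4 ± 14.6 CPM), basal epithelium (55.7 ± 18.0 CPM) and bone (49.7 ± 12.4 CPM). The lowest were cartilage (18.5 ± 4.85 CPM), neurons (12.1 ± 5.54 CPM), olfactory epithelium (11.1 ± 5.33 CPM) and radial glia (7.76 ± 5.35 CPM). Of the 14 pairs of neighbours in this order, 3 differed by more than the larger SD of the pair: epidermis from surrounding spots, dermis from oral epithelium, and cartilage from neurons. Without E14.5 replicate 1 the same number of pairs differed (3 of 14).

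The other proteases had nearly the same order, with 2 of 14 steps beyond the spread for Tpsb2, 1 for Cpa3 and 1 for Mcpt4 (3, 2 and 3 without E14.5 replicate 1). Tpsb2 was at 187 ± 23.6 CPM in epidermis spots and 3.53 ± 2.39 CPM in radial glia spots. Cpa3 was lowest in neuron spots, at 1.24 ± 0.53 CPM, and Mcpt4 likewise, at 0.258 ± 0.245 CPM. Mcpt4 had its highest mean in dermis marker spots, at 19.0 ± 2.95 CPM (n = 2), which did not differ from epidermis spots beyond the spread. In those 2 areas, both replicates 2,3,4, dermis marker spots were at 16.9 and 21.1 CPM and epidermis spots at 27.1 and 21.2 CPM. Without E14.5 replicate 1 epidermis spots had the highest mean, at 19.7 ± 8.31 CPM.

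Kit had its highest levels in olfactory epithelium marker spots (108 ± 20.3 CPM) and neuron marker spots (106 ± 13.9 CPM), which did not differ from each other. Epidermis spots were next, at 79.2 ± 22.6 CPM, below the neuron spots by more than the larger SD. Without E14.5 replicate 1 this difference was lost, with 90.2 ± 7.04 CPM in epidermis and 105 ± 16.9 CPM in neuron spots (n = 3). Choroid plexus (66.4 ± 16.3 CPM), dermis (64.5 ± 21.5 CPM, n = 2) and ciliated airway epithelium (63.3 ± 10.8 CPM) followed, and from there down to bone (45.0 ± 3.78 CPM) no neighbours differed in the 4 areas. Muscle marker spots were lowest, at 37.5 ± 3.79 CPM.

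Kitl was highest in epidermis spots (40.6 ± 6.09 CPM) and surrounding spots (34.6 ± 16.6 CPM), then in dermis (23.5 ± 1.66 CPM, n = 2), olfactory epithelium (23.2 ± 8.05 CPM) and neuron spots (22.4 ± 5.12 CPM). Ciliated airway epithelium was lowest, at 12.8 ± 4.14 CPM. No neighbours in its order differed beyond their spread (0 of 14), but without E14.5 replicate 1 epidermis spots (37.9 ± 3.77 CPM) differed from surrounding spots (27.2 ± 9.36 CPM). Every area's value in epidermis spots, 33.6 CPM or more, was above every value of the 13 groups outside the zone, of which the highest was 33.3 CPM in oral epithelium spots of E14.5 replicate 1. That highest value rested on 19 UMIs, and the lowest epidermis value had an interval of 29.9 to 37.7 CPM. The gap between them is thus within counting error.

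**Figure D4:**
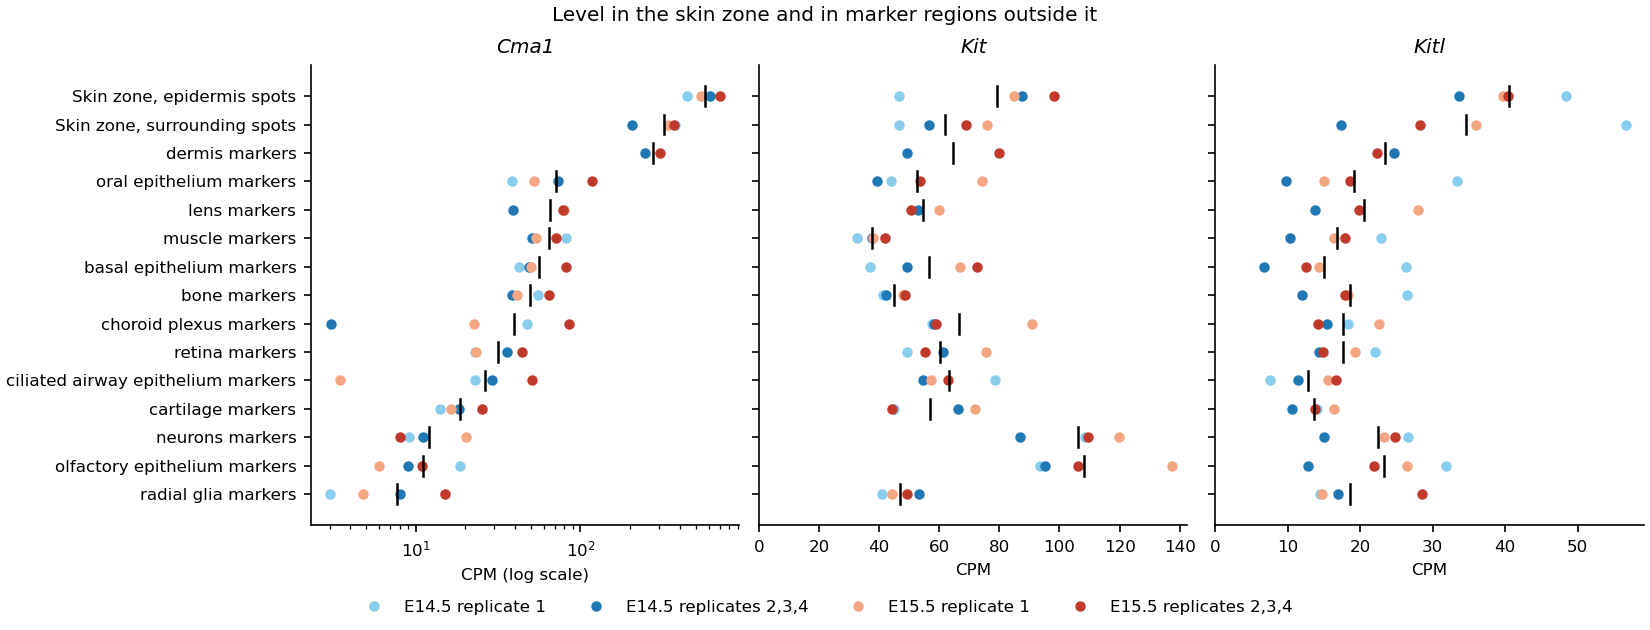
Level of Cma1 (CPM, log axis), Kit and Kitl (CPM, linear axes) in epidermis spots, surrounding spots and 13 marker groups outside the skin zone, with 1 point per capture area that had at least 20 such spots and a black bar at the mean. Cma1 spans from 574 CPM in epidermis spots to 7.76 CPM in radial glia spots, and Kit is highest in olfactory epithelium and neuron spots. Kitl in epidermis spots is at 33.6 CPM or more in each area. The highest value of the 13 groups outside the zone, among which the areas overlap, is 33.3 CPM, a gap within counting error.

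Depth differed between zones, so each spot was also thinned to 5000 UMIs, and shallower spots were left out (leaving 60 of 373 skin zone and 562 of 733 other spots in E14.5 replicate 1, 409 of 536 and 1540 of 1774 in E14.5 replicates 2,3,4, 282 of 287 and 702 of 702 in E15.5 replicate 1, and 532 of 537 and 1408 of 1415 in E15.5 replicates 2,3,4). At this depth a Cma1 UMI was found in 51.7% to 77.7% of skin zone spots, 10.5% to 20.3% of other spots and 4.55% to 7.39% of the neuron or radial glia spots outside the zone, over the 4 areas. Without E14.5 replicate 1 the lowest skin zone share was 69.2%. Few mast cells are known in embryonic brain, so the last range serves as a reference here. It is not a measured background, since these marker groups are regions of mixed cells. Without thinning the ranges were 35.7% to 98.3%, 23.3% to 62.8% and 16.6% to 30.5%, since deeper spots hold a UMI more often. For Tpsb2 the thinned shares were 36.9% to 50%, 3.85% to 6.61% and 1.72% to 2.44%, and for Cpa3 15.2% to 25.8%, 1.04% to 4.12% and at most 0.909%. Mcpt4 was found in 3.33% to 7.33% of thinned skin zone spots and in at most 0.71% of other spots.

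Kitl UMIs were found in 12.5% to 26.7% of thinned skin zone spots, 7.34% to 10.9% of other spots and 8.29% to 12.7% of neuron or radial glia spots. For Kit the shares were 26.7% to 35.7%, 25.8% to 32.6% and 30.7% to 37.8%. Without E14.5 replicate 1 the skin zone ranges were 12.5% to 19.5% for Kitl and 30.1% to 35.7% for Kit. The zones thus overlapped for Kit, whereas for the 4 proteases the lowest skin zone share was above the highest share of other spots.

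Summed over whole areas, Tpsb2 kept a similar proportion to Cma1 in skin and elsewhere, while Cpa3 and Mcpt4 varied more. Capture may differ between genes, so only the same proportion in different places is compared. For each 100 Cma1 UMIs there were 34.1, 32.6, 30.3 and 31.0 Tpsb2 UMIs in the skin zone and 33.0, 34.8, 30.6 and 29.2 in other tissue. Cpa3 was more variable, at 14.5, 7.45, 8.42 and 11.8 in the skin zone against 23.1, 11.1, 10.4 and 12.8 in other tissue, the value of other tissue being the higher in each area. Counting-error intervals of the zones were apart in E14.5 replicates 2,3,4 (6.83 to 8.12 and 9.83 to 12.6). They overlapped in E14.5 replicate 1 (11.3 to 18.5 and 17.6 to 30.0) and E15.5 replicate 1 (7.74 to 9.13 and 8.79 to 12.2). The same held for E15.5 replicates 2,3,4 (11.2 to 12.4 and 11.6 to 14.0). Mcpt4 was at 2.13, 4.72, 2.17 and 3.46 in the skin zone and 3.96, 4.58, 3.30 and 3.30 in other tissue.

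By section, Cma1 in the skin zone ranged from 276 to 743 CPM. At E14.5 it was at 403 CPM in the replicate 1 section and at 276, 346 and 424 CPM in the other 3 sections, here called A to C. At E15.5 it was at 467 CPM in the replicate 1 section and at 743, 352 and 703 CPM in the other 3. The stages overlapped, and 2 of the 4 E15.5 sections stood above all others. E14.5 section A differed in its proportions: it had 12 Mcpt4 UMIs per 100 Cma1 UMIs in its skin zone (64 against 532 UMIs), where the other 7 sections had 2.14 to 4.79. This section was the shallower of its area, with a median of 10037.5 UMIs per spot against 65616 and 59411. The proportion of Tpsb2 also varied by section. In the skin zone it ran from 28.4 per 100 Cma1 UMIs in E14.5 section C to 39.5 in E14.5 section B of the same area. In other tissue it ran from 25.9 in E15.5 section B to 38.7 in E14.5 section B.

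Across skin zone spots of at least 5000 UMIs, the members' levels were correlated to different degrees, given here as a description over spots that share a library and a depth. Pearson's r of the log2 level, by area, was 0.70 to 0.77 between Cma1 and Tpsb2, 0.57 to 0.67 between Cma1 and Cpa3 and 0.20 to 0.43 between Cma1 and Mcpt4. Between Kit and Cma1 it was 0.33 to 0.58, and between Kitl and Cma1 0.23 to 0.36.

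Over all 57 units of region and area, and among 13994 genes, the genes most like each member were named by Pearson's r of log2(CPM + 1). For Cma1 these were Tpsb2 (0.94), Cpa3 (0.94) and Hoxd8 (0.93). For Tpsb2 they were Cma1 (0.94), Hoxd8 (0.92) and Clec3b (0.91), and for Mcpt4 they were Tpsb2 (0.90), Cma1 (0.89) and Clec3b (0.87). For Cpa3 they were Cma1 (0.94), Dpt (0.91) and Tpsg1 (0.91), where Dpt is a dermal matrix gene and Tpsg1 another tryptase. Kit was most like Neurl1b, Clstn1 and Sh3bp2 (0.69 each) and Kitl most like Tpsg1 (0.66), Slc38a9 (0.65) and Fem1a (0.65). The units share libraries and the contrast of skin with brain, and r between Kit and Cma1 over them was -0.09.

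Because Hoxd8 stood among these genes, the skin zone was also described by its Hox level, a choice made after its values were seen, so no test is given. The sum of 31 Hox genes of groups 4 to 13 was at 275, 131, 359 and 195 CPM in the skin zone against 23.5, 19.0, 20.4 and 24.1 CPM in other tissue. Among skin zone spots of at least 5000 UMIs, 39, 198, 216 and 336 spots were at 100 CPM or more and 14, 104, 31 and 102 under 50 CPM. Cma1 was at 586, 640, 541 and 803 CPM in the former and 119, 98.0, 173 and 187 CPM in the latter, a ratio of 3.12 to 6.52 with no overlap between the sets. With Hoxd8 left out of the sum the ratio was 1.95 to 4.55.

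The ratio of Hox-high to Hox-low skin was 4.39 to 6.85 for Tpsb2, 2.47 to 6.48 for Cpa3 and 1.45 to 3.24 for Mcpt4. It was 1.45 to 2.90 for Kitl and 1.04 to 1.95 for Kit. Epidermis markers moved with the Hox level in the 3 deeper areas, at 1866 against 738, 3760 against 914 and 3911 against 824 CPM, but not in E14.5 replicate 1, at 1545 against 1607 CPM. Within epidermis spots the Cma1 ratio was 5.16, 2.02 and 3.70 in the 3 deeper areas, and 0.596 in E14.5 replicate 1, where the Hox-low set was 2 spots. Within surrounding spots it was 9.30, 4.75, 3.07 and 5.02. Among Hox-high spots, Cma1 was at 548, 727, 560 and 784 CPM in epidermis spots and 619, 419, 471 and 911 CPM in surrounding spots. The surrounding spots were thus the higher in E14.5 replicate 1 and E15.5 replicates 2,3,4. Epidermis spots were mostly Hox-high, surrounding spots less so. In E15.5 replicates 2,3,4 the Hox-high and Hox-low spots numbered 290 and 24 in the epidermis and 46 and 78 around it. The part of this mix in the decline with distance was not tested. With all Hox-high spots left out of both zones, the 4 proteases were still higher in the skin zone, by a mean log2 ratio of 2.83 against 3.75 with them. Their part in the skin level was not tested further.

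The design compares E14.5 with E15.5. Over all tissue spots no gene passed at an adjusted p under 0.1 (0% of 15609 genes, edgeR quasi-likelihood test with Benjamini-Hochberg adjustment). Of these genes 930 had an unadjusted p under 0.05, and DESeq2 called 15 up and 13 down. Leaving out E15.5 replicate 1 gave 78 calls. On simulated counts for this comparison, with 15451 genes, the test recovered 82.1% of genes changed by 2 on the log2 scale and 22.7% of those changed by 1.

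Cma1 was at 52.7 and 98.1 CPM in the E14.5 areas and 131 and 179 CPM in the E15.5 areas (TMM-scaled, all tissue spots). The areas of a stage did not overlap with those of the other, and the log2 fold change was 1.04 (SE 0.33, edgeR adjusted p = 0.77). Tpsb2 had 0.90 (SE 0.35), Cpa3 0.92 (SE 0.37) and Mcpt4 0.55 (SE 0.57), and Kitl with 0.14 (SE 0.31) and Kit with 0.05 (SE 0.22) lay within their SE of 0. None of these passed. The share of UMIs that came from the skin zone also differed between the areas, at 8.36% and 18.2% at E14.5 and 23.5% and 24.5% at E15.5, and its part in these differences was not tested.

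Within the skin zone again no gene passed (0% of 14250 genes by edgeR, 189 with an unadjusted p under 0.05, 1 up and 1 down by DESeq2). Without E14.5 replicates 2,3,4 there were 115 calls, without E15.5 replicate 1 there were 16, without E15.5 replicates 2,3,4 there were 8, and without E14.5 replicate 1 there was 1. Cma1 was at 400 and 395 CPM at E14.5 and 460 and 563 CPM at E15.5 (TMM-scaled), a log2 fold change of 0.37 (SE 0.25). Kit had 0.45 (SE 0.28), Cpa3 0.33 (SE 0.40), Tpsb2 0.25 (SE 0.25), Mcpt4 0.01 (SE 0.48) and Kitl -0.03 (SE 0.38), all with an edgeR adjusted p of 1.0. Kitl had 0.52 without E14.5 replicate 1, whose skin zone had the highest Kitl level. The make-up of the zone differed too. Epidermis spots were 168 of 373 and 250 of 536 of its spots at E14.5, and 204 of 287 and 351 of 537 at E15.5. In epidermis spots alone the log2 fold change was 0.19 for Cma1, 0.01 for Tpsb2, 0.09 for Cpa3, -0.53 for Mcpt4, 0.32 for Kit and 0.0086 for Kitl. The part of this make-up in the stage values was not tested.

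Which other genes were high where the proteases were was asked within the skin zone. Spots of at least 5000 UMIs were split at the median summed CPM of the 4 proteases, separately in the epidermis and the surrounding spots of each area, and UMIs of the higher and of the lower spots were summed per area (29 and 31, 204 and 205, 140 and 142, 265 and 267 spots). The 4 proteases that made the split were left out of the test. The split was not made within sections, so differences between the sections of a replicates 2,3,4 area can enter it. This split was set after the data had been seen, and the members and gene lists were chosen with earlier results known. The p-values for Kit, Kitl and the lists therefore describe this split and are not independent evidence. Of 13320 genes, 691 rose in protease-high spots (5.19%) and 692 fell (5.2%), together 10.4%, by edgeR's quasi-likelihood test with the area as a block and Benjamini-Hochberg adjusted p under 0.1. The count was 572 without E14.5 replicates 2,3,4 and 751 without E15.5 replicate 1, and DESeq2 called 406 up and 345 down.

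Kit rose, from 42.8, 57.2, 62.7 and 54.7 CPM in protease-low spots to 75.9, 84.5, 99.4 and 118 CPM in protease-high spots of the same areas. It was the higher in 4 of 4 areas, with a log2 fold change of 0.78 (SE 0.09, edgeR adjusted p = 0.0011). Kitl rose as well, from 58.8, 20.2, 31.8 and 22.0 CPM to 81.0, 29.0, 44.5 and 48.8 CPM, higher in 4 of 4 areas, with 0.71 (SE 0.12, edgeR adjusted p = 0.0089). The fold change of Kit was 0.64 to 0.88 and that of Kitl 0.52 to 0.79 with any 1 area left out. In the skin zone of E15.5 sections A, B and C, Cma1 was at 743, 352 and 703 CPM. Kit was at 99.8, 65.8 and 102.6 CPM there and Kitl at 38.1, 28.9 and 41.4 CPM, so section B was lowest for each. Among E14.5 sections A, B and C, section B was lowest for Kit but not for Cma1. For Kitl, section B at 21.7 CPM was close to section A at 21.8 CPM. The part of such differences in the rise was not tested. In E14.5 replicate 1 the values of this split rested on few UMIs. Kit had 30 in protease-high and 16 in protease-low spots, and Kitl had 32 and 22.

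The Hox level touched these results. With the split made within classes of the Hox level as well, Kit had 0.74 (edgeR adjusted p = 0.0023), Kitl 0.57 (adjusted p = 0.024), and 261 genes rose and 180 fell. With Hox-high spots left out, which leaves 3 areas, Kit had 0.23 (adjusted p = 0.46) and Kitl 0.42 (adjusted p = 0.21), and neither passed. The split first planned, spots with at least 2 protease UMIs against spots with 0, could be made in the skin zone of the E14.5 areas only, with median depths of 4119 against 1212 and 45800.5 against 1154.5 UMIs per spot. It gave Kit 1.14 (adjusted p = 0.12) and Kitl 0.69 (adjusted p = 0.74).

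Of the list of other mast cell genes 19 could be tested, and 17 rose and 0 fell, with a median log2 fold change of 1.61 against -0.0047 over all genes tested. Among them were Hdc, the histidine decarboxylase (1.78, SE 0.09), Srgn, the core of the granule proteoglycan serglycin (1.69, SE 0.09), and Il1rl1, the receptor of interleukin 33 (1.77, SE 0.14). Others were Ms4a2, the beta chain of the IgE receptor (2.03, SE 0.37), its gamma chain Fcer1g (0.96, SE 0.07), the leukotriene enzymes Alox5 (1.69, SE 0.22) and Ltc4s (1.04, SE 0.32), and Ndst2, which sulphates heparin (0.56, SE 0.06). Gata1 (1.57, SE 0.30) and Gata2 (1.37, SE 0.12), whose factors act in the mast cell lineage, rose too.

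Cd200r3, Cyp11a1, Adora3, Tpsg1, Mcpt2, Tpsab1 and Slc18a2 were the other members of the list that passed, at 2.24, 2.02, 1.93, 1.84, 1.61, 1.14 and 0.60. Tpsab1 and Tpsg1 resemble Tpsb2, and Mcpt2 resembles the chymases of the split, so counts could be shared between similar sequences and are uncertain. Slc18a2 was at -0.0024 when the skin zone was set by a 3-class Otsu threshold. Rab27b was at 0.42 (edgeR adjusted p = 0.40) and Mitf, a factor of mast cells and of melanocytes, at -0.02 (adjusted p = 0.97). With Hox-high spots left out, 7 of the list rose, and with any 1 area left out 14 to 16. Ltc4s lost its call with each area left out in turn (edgeR adjusted p = 0.13 to 0.40), Mcpt2 without E14.5 replicates 2,3,4 (0.14), and Tpsab1 without E14.5 replicates 2,3,4 (0.25) or E15.5 replicate 1 (0.19).

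The 10 genes with the largest rise were Gpr141b (2.46, SE 0.32), Sucnr1 (2.28, SE 0.55), Cd200r3, Ms4a2, Cyp11a1, Grm6 (1.98, SE 0.43), Adora3, Tpsg1, Htr1f (1.79, SE 0.35) and Hdc. Thus 6 of the 10 were on the list of mast cell genes. The other 4 encode receptors: Gpr141b an orphan receptor, Sucnr1 the succinate receptor, Grm6 a glutamate receptor and Htr1f a serotonin receptor. Beside the splits by presence of protease UMIs, 4 of the 10 lost their call under other settings by edgeR: Sucnr1 and Htr1f with the split within Hox classes (adjusted p = 0.10 each), Ms4a2 and Htr1f in epidermis spots alone (0.19 each), Htr1f with a raised threshold (0.31) and Grm6 without E15.5 replicates 2,3,4 (0.10). DESeq2 gave no adjusted p for 5 of the 10 (Gpr141b, Sucnr1, Ms4a2, Grm6 and Htr1f). Not every other setting gave these 5 an adjusted p: 13 did for Gpr141b, 10 for Sucnr1, 14 for Ms4a2, 12 for Grm6 and 16 for Htr1f, against 22 for Hdc. Their counts were low. In protease-high and protease-low spots of E14.5 replicate 1, Gpr141b, Ms4a2 and Htr1f each had 1 and 0 UMIs and Grm6 had 2 and 0. Sucnr1 had 0 and 1 there, the other direction.

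Of 16 genes that carry the signal of KIT inside the cell, 2 rose and 0 fell, with a median of 0.12, where 5.19% of all genes rose. These were Btk, a kinase of mast cells and B cells (0.80, SE 0.25), and Sh2b3, an adaptor that damps KIT signals (0.31, SE 0.07). Lyn was at 0.20 (edgeR adjusted p = 0.29) and Ptpn6 at 0.32 (adjusted p = 0.16).

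Markers of other cells moved with the split too, and their part in the results for Kit and Kitl was not tested. Of the macrophage markers 5 of 6 rose, with a median of 0.65, and their summed level was 344 to 481 CPM in protease-high and 221 to 289 CPM in protease-low spots. Mcpt8, the basophil protease measured here, rose by 1.32 (SE 0.36), and Pf4, a platelet gene that macrophages also express, by 0.94 (SE 0.07). Of the markers of pigment cells, 3 of 5 fell (Tyrp1 by 1.22, Pmel by 0.84 and Tyr by 0.64 on the log2 scale) and 0 rose. No epidermis marker passed (0 of 7 in either direction). Of dermis markers 2 of 4 rose, Dpt by 1.38 (SE 0.06) and Crabp1 by 0.24 (SE 0.07). Sox10 of nerve glia (1 of 4 rose) was at 0.54 (SE 0.15) and Cdh5 of endothelium (1 of 4 rose) at 0.29 (SE 0.06), and 2 of 6 muscle and 1 of 5 radial glia markers rose. Of basal epithelium markers 3 of 4 fell. Of other tissues, 6 of 6 bone, 5 of 5 lens, 4 of 4 oral epithelium and 4 of 5 cartilage markers fell.

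**Figure D5:**
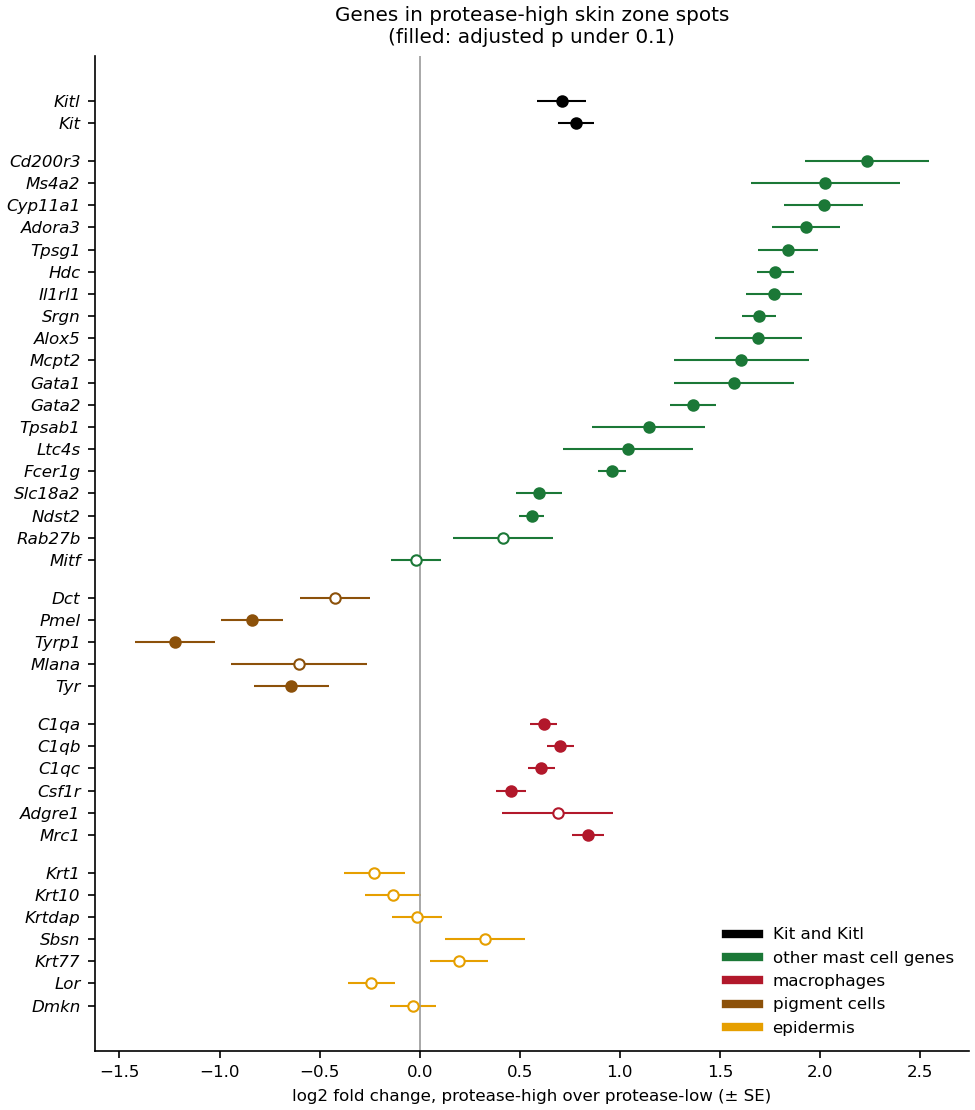
Log2 fold change of protease-high over protease-low skin zone spots with its SE, for Kitl and Kit and for the genes of 4 marker lists, with filled points where the adjusted p was under 0.1. Kitl and Kit lie at 0.71 and 0.78, 17 of 19 other mast cell genes are filled and to the right of 0, the pigment cell markers lie to the left of 0 and the epidermis markers lie around 0, all open.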

How the data were processed

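Visium spatial UMI counts were used from 4 capture areas of wild-type mouse heads. The authors deposited raw counts per gene and spot, made with Space Ranger 1.3.1 (replicate 1 areas) or 2.0.0 (replicates 2,3,4), per the file headers, on mm10 per the submitters' processing notes. Tissue spots were kept and 19 off-tissue barcodes set aside.

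UMIs were summed per area and set of spots. CPM divides by all UMIs of the set. Tests used edgeR 4.0.16 in R 4.3.3 (quasi-likelihood, TMM, filterByExpr, Benjamini-Hochberg over all genes, threshold 0.1), with DESeq2 1.42.0 as alternative, checked on simulated counts. Samples were grouped by their stage labels.

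The members and gene lists were chosen with earlier results of these data known. An Otsu threshold of 16.6 CPM for epidermis markers took in 6290 of 6357 spots with their surroundings, so 1000 CPM was set after seeing the data. Likewise, the comparison of spots with at least 2 protease UMIs against 0 followed depth and was replaced by the median split. The lists of Hox genes came later still.

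Named were the members, the 10 largest rises among calls of the protease split, mast cell genes that passed, and the 3 genes most like each member (at least 200 UMIs, regions of at least 20 spots).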

Additional observations from a re-analysis of the deposited data

Results flagged for a closer look

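Sections were compared within each stage, 4 per stage, with Dixon's test of the most distant section. Of 48 values tested 2 stood apart, and chance alone gives about 1 in 20. The 3 sections on 1 area are not independent, since their spots went into the same library.

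Kitl in the skin zone was at 52.5 CPM in the E14.5 replicate 1 section against 21.7 to 26.8 CPM in the other 3 E14.5 sections. That section had 67 Kitl UMIs in its skin zone.

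Mcpt4 in other tissue was at 4.52 CPM in E14.5 section A against 0.84 to 1.19 CPM in the other 3 E14.5 sections. This rests on 33 UMIs, and the same section had 33.2 CPM of Mcpt4 in its skin zone, against 8.61 to 19.5 CPM in the other 3.

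Member UMIs also lay in the 8 barcodes off the tissue of E14.5 replicates 2,3,4, with 27 for Cma1, 17 for Kit, 14 for Tpsb2 and 5 for Mcpt4, and in the 11 such barcodes of E15.5 replicates 2,3,4, with 40 for Cma1, 24 for Kit, 11 for Tpsb2 and 9 for Kitl. As levels, Cma1 was at 129 and 113 CPM there and Kit at 81.1 and 68.0 CPM. These counts are above the 3 that a count of 0 allows. The barcodes were not empty, since the 8 held 209555 UMIs in all and the 11 held 352936. Whether they lay over tissue was not tested.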

How the results depend on the processing

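The skin zone level of the 4 proteases was above that of other tissue under every alternative that gave a value, with a mean log2 ratio of 2.83 to 3.81 (3.75 as reported). It was 3.29 with epidermis spots alone, 3.32 as a mean of per-spot CPM and 2.83 without Hox-high spots, and 3.62 to 3.91 with any 1 area left out. The planned threshold left too few other spots to give a value. Kitl stayed above other tissue (1.02 as reported), with 0.79 for spots within 2 spacings, 0.68 for a threshold lowered 2-fold, 0.77 as a mean of per-spot CPM, 0.54 without Hox-high spots and 0.61 for a 3-class Otsu threshold, the last 2 chosen after seeing the data. Kit changed sign between settings, from -0.29 to 0.28.

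For the stages, over all tissue the count of calls was 0 to 78 and in the skin zone 1 to 115 with any 1 area left out. It was 28 and 2 with DESeq2 and 37 in the skin zone with no filter. The replicate numbers 1 and 2,3,4 are shared by the stages but also mark layout and software version, and same-numbered areas had correlated deviations of 0.25 over all tissue and -0.12 in the skin zone. With the replicate block there were 0 and 2 calls. With any 1 area left out, log2 fold changes over all tissue were -0.17 to 0.52 for Kitl, -0.065 to 0.18 for Kit and -0.0017 to 1.64 for Mcpt4, and in the skin zone -0.55 to 0.52 for Kitl, -0.52 to 0.80 for Mcpt4 and -0.14 to 0.83 for Cpa3. In the skin zone Kitl turned to 0.0021 without TMM, 0.012 with the replicate block, 0.0086 in epidermis spots alone, 0.029 with a lowered threshold, 0.039 with the 3-class and 0.14 with the planned threshold, and 0.058 within 2 spacings. Mcpt4 turned to -0.53 in epidermis spots alone and to -0.18 and -0.0056 with a raised or lowered threshold. None of these passed.

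For the protease split (1383 calls), counts were 751 with DESeq2, 737 with at least 10 counts in every area, 800 at an adjusted p under 0.05, 167 in epidermis spots alone, 260 with a raised threshold, 2786 within 2 spacings and 572 to 1454 with any 1 area left out. Chosen after seeing the data, they were 441 within Hox classes, 519 without Hox-high spots and 9460 with the planned threshold. Presence against absence of protease UMIs, which follows depth, gave 116 for at least 1 UMI, 119 for at least 2 and 1 for at least 4 in the skin zone, 10491 with the planned threshold and 10499 over all tissue. In the last 2 Kit fell by 0.22, and it was at -0.072 with the planned threshold and the median split. Slc18a2 turned to -0.62, -0.55 and -0.63 for at least 1, 2 and 4 UMIs, -1.69 in both wider sets, -0.0024 with the 3-class and -1.26 with the planned threshold. Of the other mast cell genes (17 as reported), 3 rose with at least 10 counts in every area, which leaves fewer genes to test, 7 without Hox-high spots, and 1, 1 and 0 for at least 1, 2 and 4 UMIs.

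Shallow reads in E14.5 replicate 1 limit all its skin zone values, and 2 areas per stage limit the stage comparison.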

Other observations

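In the skin zone, 79 spots lay in small pieces of tissue apart from the 8 sections. They had 470 CPM of Hox genes, 560 CPM of Cma1, 188 CPM of Tpsb2, 91.1 CPM of Cpa3, 5.55 CPM of Mcpt4, 85.2 CPM of Kit and 38.8 CPM of Kitl.

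At 5000 UMIs per spot, skin zone spots with a Cma1 UMI held a Tpsb2 UMI in 54.8%, 48.4%, 49.3% and 57.5% of cases in the 4 areas, and those without one in 20.7%, 11.1%, 20.6% and 26.0%. For Kit the shares were 35.5%, 34.3%, 32.9% and 41.2% with a Cma1 UMI and 17.2%, 24.6%, 20.6% and 18.1% without. In other tissue Kit was found in 25.4%, 26.1%, 31.5% and 28.3% of spots with a Cma1 UMI and in 27.0%, 25.8%, 32.8% and 27.5% of spots without one.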
